A study of Mus musculus with 9 samples.

Results

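Slc2a4, Rhoq and Slc16a11 were followed in mouse kidney RNA as genes of glucose and monocarboxylate transport. They were chosen by name and make up 3 of the 489 distinct genes in the 2 deposited tables. All 3 stood in the table for young against old mice (389 genes) and none in the table for 3HB against old mice (113 genes). Kidneys of male ICR mice were sequenced in 3 groups of 3, namely untreated mice of 2 months (young), untreated mice of 20 months (old) and mice of 20 months that had received 3HB (3-hydroxybutyrate, given as its sodium salt) at 1 g/L in the drinking water from 11 months of age. ICR is an outbred stock. The old and the 3HB mice thus share their age, and the young mice differ from both in age and in any handling that went with it, which cannot be told apart.

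Glucose crosses the plasma membrane through facilitative carriers of the SLC2 family. Slc2a4 encodes GLUT4, the carrier that waits in intracellular vesicles of muscle and fat cells until insulin sends it to the surface. Rhoq encodes TC10, a small GTPase that acts in the insulin response leading to GLUT4 vesicles and in actin organization. Slc16a11 encodes MCT11, a member of the SLC16 family, whose best known members carry lactate, pyruvate and ketone bodies together with protons. The ketone body 3HB is itself a monocarboxylate, and the kidney both takes up glucose from the filtrate and uses lactate and ketone bodies.

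Each table lists only genes that the authors had called for its comparison, with a normalized expression value for each of the 9 mice. A place in the table for young against old therefore already reports a difference in these same mice, and the age differences below are descriptions. Of 38 marker genes of kidney segments, vessels, fat, muscle and leukocytes, 1 was listed, the proximal tubule receptor gene Lrp2. It was listed for 3HB against old alone, so its difference there had been called on these same mice. Its mean was 85.2 ± 27.2 for young mice, 94.2 ± 9.65 for old mice and 148.5 ± 5.77 under 3HB (± SD, n = 3 each). Young and old mice overlapped. Markers of fat cells and of skeletal muscle, the classic sites of GLUT4, were not listed, so their levels were not analysed here and their part in the results was not tested. In whole kidney, fewer cells of a type and less RNA per cell cannot be told apart.

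Slc2a4 (ENSMUSG00000018566) was lower in old than in young kidneys. Its value was 21.60, 16.60 and 20.44 in young mice 1, 2 and 3, and 7.54, 11.12 and 10.84 in the old mice. Every old mouse lay below every young mouse. The group means were 19.6 ± 2.62 in young and 9.83 ± 1.99 in old mice (SD, n = 3 each), so young kidneys held 1.99 times as much. On the scale of log2(value + 1), used for all differences of single genes here, old minus young was -0.93 (standard error 0.197). Changes of genes near 0 come out too small on it.

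With 3HB, the Slc2a4 values were 12.59, 18.56 and 11.71, a mean of 14.3 ± 3.73 (SD, n = 3). Every 3HB mouse lay above every old mouse, and 3HB mouse 2 also lay inside the young range. The difference 3HB minus old was 0.49 (standard error 0.253). A two-sided exact permutation test over all splits of the 6 mice gave p = 0.1, the lowest value this test can give with 3 mice against 3, so it cannot reach 0.05. The difference was 0.30 without 3HB mouse 2, 0.32 without old mouse 1 and 0.20 between the medians of the mice. After centring on the 376 genes listed for age alone, which were themselves called on the old mice, it was 0.44, and the groups then overlapped (exact permutation test, p = 0.2). Slc2a4 was 1 of 3 members without overlap between 3HB and old mice, where 11.7% of the 376 genes listed for age alone showed none. Among the 118 of these genes that were lower in old mice, 13 (11.0%) had every 3HB mouse above every old mouse, as Slc2a4 did. The comparisons of old with young and of 3HB with old use the same 3 old mice and are not independent. Against young mice, the 3HB mice were lower by 0.45 on average (standard error 0.222), with overlap (p = 0.2, exact permutation test).

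**Figure D1:**
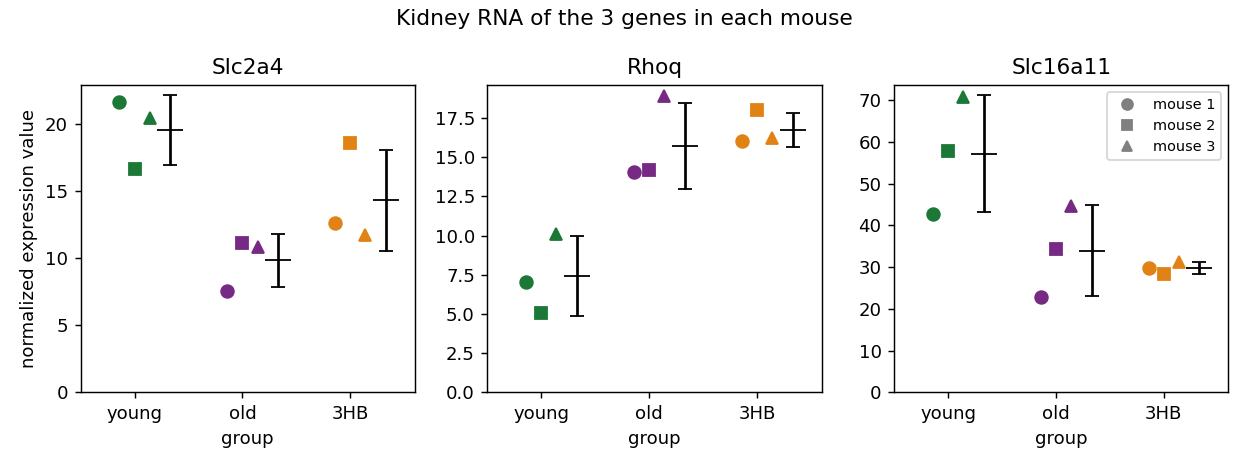
Normalized expression value (linear axis from 0) of Slc2a4, Rhoq and Slc16a11 in each of 9 kidneys, by group. Circles, squares and triangles are mice 1, 2 and 3 of a group, and the bar with whiskers is the mean ± SD. For Slc2a4 the 3HB mice sit between 11.71 and 18.56, all above the old mice, while for Rhoq and Slc16a11 they sit inside the range of the old mice.

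Rhoq (ENSMUSG00000024143) moved the other way. Its value was 7.04, 5.06 and 10.11 in young mice and 14.08, 14.21 and 18.91 in old mice. All old mice lay above all young mice, at means of 15.7 ± 2.75 and 7.40 ± 2.55 (SD, n = 3 each), which is 2.13 times as much in old kidneys. Old minus young was 1.03 on the log2 scale (standard error 0.285). With 3HB the values were 16.02, 18 and 16.25, which all fell within the range of the old mice. The difference 3HB minus old was 0.096 (standard error 0.141; exact permutation test, p = 0.6). It ranged from 0.027 without old mouse 1 to 0.23 without old mouse 3, where the 3HB mice lay above both remaining old mice. Against young mice the 3HB mice were higher by 1.12 (standard error 0.257), without overlap.

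Slc16a11 (ENSMUSG00000040938) was lower in old kidneys on average, though the groups overlapped. Its value was 42.75, 57.93 and 70.87 in young mice and 22.85, 34.26 and 44.68 in old mice. Old mouse 3 lay just above young mouse 1. The means were 57.2 ± 14.1 in young and 33.9 ± 10.9 in old mice (SD, n = 3 each), and old minus young was -0.76 on the log2 scale (standard error 0.343). Thus 2 of the 3 members, Slc2a4 and Rhoq, showed no overlap between young and old mice, where 92.5% of all genes in that table showed none.

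The 3HB mice held Slc16a11 at 29.67, 28.35 and 31.32, a mean of 29.8 ± 1.49 (SD, n = 3). These values lay within the range of the old mice and within a narrower band, with a coefficient of variation of 5.0% against 32.2% in old and 24.6% in young mice. The difference 3HB minus old was -0.13 (standard error 0.276; exact permutation test, p = 0.7), and it was -0.38, with no overlap, without old mouse 1 and 0.085 without old mouse 3. Every 3HB mouse lay below every young mouse, by 0.89 on average (standard error 0.212). Between 3HB and young mice, 2 of 3 members (Rhoq and Slc16a11) did not overlap, against 83.5% of the genes listed for age alone. Over the 9 comparisons of the 3 members, the Benjamini-Hochberg adjusted p of the exact permutation tests lay between 0.18 and 0.7.

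**Figure D2:**
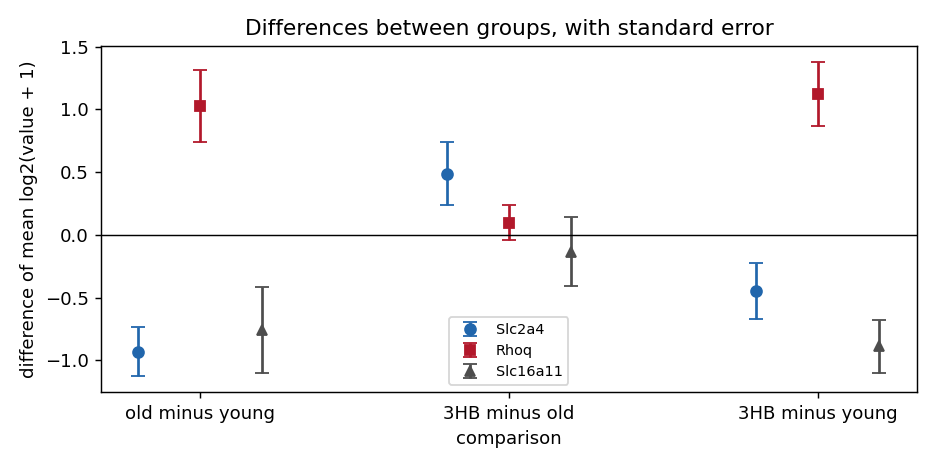
Difference between group means of log2(value + 1) with its standard error, for Slc2a4 (circles), Rhoq (squares) and Slc16a11 (triangles) in 3 comparisons. Old minus young is -0.93, 1.03 and -0.76 in that order, and for 3HB minus old Slc2a4 is at 0.49 while Rhoq (0.096) and Slc16a11 (-0.13) lie within 1 standard error of 0.

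None of the 3 changes with age was large for its table. Of the 118 genes lower in old mice, 71 had a larger log2 difference than Slc2a4 and 90 a larger one than Slc16a11, with a median of -1.06. Of the 271 genes higher in old mice, 208 had a larger difference than Rhoq, with a median of 1.58. For the 100 genes listed for 3HB alone, the median over them within a mouse was on average 0.18 higher, on the log2 scale, for old mice than for young mice. These genes had been called on the same old mice, so the shift is no independent baseline. Relative to it, old minus young was -1.11 for Slc2a4, 0.85 for Rhoq and -0.94 for Slc16a11. After this centring, young and old mice did not overlap for Slc16a11, and neither did young and 3HB mice for Slc2a4 (exact permutation test, p = 0.1 for each).

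**Figure D3:**
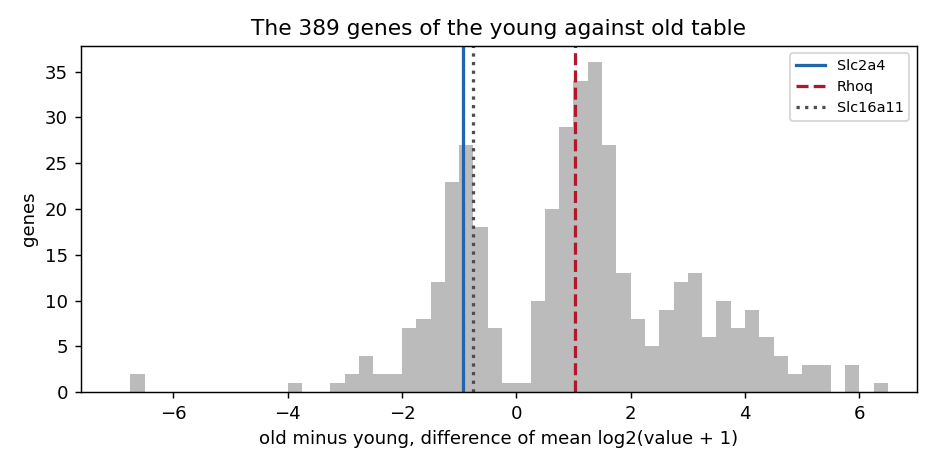
Number of genes (vertical axis) by their difference old minus young in mean log2(value + 1) (horizontal axis), for the 389 genes of the table for young against old. The lines mark Slc2a4, Rhoq and Slc16a11, which all stand on the inner part of the distribution, at -0.93, 1.03 and -0.76.

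Ratios within a mouse do not depend on the scaling of a library, and their differences are given on the log2 scale with nothing added to the values. Slc2a4 over Rhoq was 3.07, 3.28 and 2.02 in young mice and 0.536, 0.783 and 0.573 in old mice. The normalized value of Slc2a4 thus exceeded that of Rhoq in every young kidney and lay below it in every old kidney. The log2 ratio fell by 2.14 from young to old (standard error 0.276), a 4.39-fold change. With 3HB the ratio was 0.786, 1.03 and 0.721, which overlapped the old mice (3HB minus old 0.43, standard error 0.229; exact permutation test, p = 0.2) and stayed below all young mice. Without 3HB mouse 2 this difference was 0.28, and without old mouse 2 it was 0.59, with no overlap. Slc16a11 over Rhoq averaged 8.18 ± 2.87 for young, 2.13 ± 0.442 for old and 1.79 ± 0.186 for 3HB mice (SD, n = 3 each), again without overlap between young and old. Slc16a11 over Slc2a4 overlapped between young and old mice (log2 difference 0.23, standard error 0.307; exact permutation test, p = 0.6). It was lower in every 3HB mouse (2.36, 1.53 and 2.68) than in every old mouse (3.03, 3.08 and 4.12), a log2 difference of -0.67 (standard error 0.284; exact permutation test, p = 0.1). It moved to -0.43 without 3HB mouse 2. The choice of these ratios, and of those with Ybx2, followed a look at the values. If the values are per transcript length, as StringTie reports them, the order of levels was Slc16a11, Slc2a4, Rhoq in young and Slc16a11, Rhoq, Slc2a4 in old mice, with no overlap between neighbours in either order. In 3HB mice Rhoq and Slc2a4 overlapped, and Slc16a11 stayed highest.

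**Figure D4:**
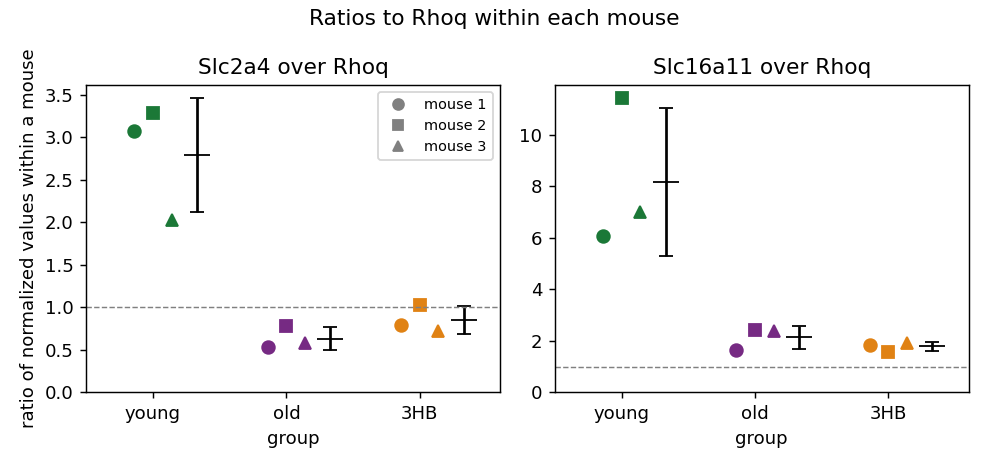
Ratio of normalized values within each mouse (linear axis from 0), Slc2a4 over Rhoq on the left and Slc16a11 over Rhoq on the right. Points are mice, bars with whiskers are mean ± SD, and the dashed line is a ratio of 1. Slc2a4 exceeds Rhoq in all young mice (2.02 to 3.28), in no old mouse and in 3HB mouse 2 (1.03).

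In the GENCODE annotation of build GRCm38, Slc2a4 spans chr11:69942539-69948188 on the minus strand with 9 merged exons, and Slc16a11 spans chr11:70212752-70216417 on the plus strand with 4. The intervening 264.6 kb hold 12 protein coding genes, and none of the genes there was listed. Rhoq spans chr17:86963082-87000069 on the plus strand with 5 merged exons. Its exons share 312 bases with those of Pigf on the opposite strand, and as strand use in counting was not given in the sources used here, reads from those bases cannot be told apart. No listed gene lay within 1 Mb of Rhoq, among 19 protein coding genes. Within 1 Mb of Slc2a4, 5 of 110 protein coding genes were listed, which were Ybx2, Tmem256, Slc16a11, Cxcl16 and Tm4sf5, and for Slc16a11 the same window held Slc2a4 and the other four.

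Ybx2, which encodes a nucleic acid binding protein known from germ cells, lies 933 bases beyond the 3′ end of Slc2a4 on the opposite strand, so that the genes end toward each other. Its value was 13.09, 10 and 16.11 for the young mice, 4.97, 7.11 and 8.88 for the old mice, and 5.58, 12.93 and 6.25 under 3HB. As with Slc2a4, all old mice lay below all young mice and 3HB mouse 2 stood high among the 3HB mice. Old minus young was -0.82 (standard error 0.281). Across the 9 mice, Pearson's r of the log2 values of Ybx2 and Slc2a4 was 0.89, the 6th highest of 331 listed genes, and it was 0.91 for the deviations from the group means. The ratio of Slc2a4 over Ybx2 averaged 1.53 ± 0.223 for young, 1.43 ± 0.186 for old and 1.86 ± 0.411 for 3HB mice (SD, n = 3 each), and the 3HB mice differed from the old by 0.36 on the log2 scale (standard error 0.220; exact permutation test, p = 0.3). This was 0.20 without 3HB mouse 1. Without 3HB mouse 2 it was 0.53, and the remaining 3HB mice did not overlap the old. Whether reads that run past either end enter both values was not tested. The other neighbours followed Slc2a4 less closely, with r of 0.72 for Tm4sf5, 0.13 for Tmem256 and -0.76 for the chemokine gene Cxcl16. For the deviations from the group means, r was -0.07, -0.11 and -0.25 in that order. Tm4sf5 was also the neighbour closest to Slc16a11 by r (0.86, and 0.59 for the deviations). Its values were 4.75, 7.06 and 12.44 in young mice, and it was listed at 0 in all old mice.

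**Figure D5:**
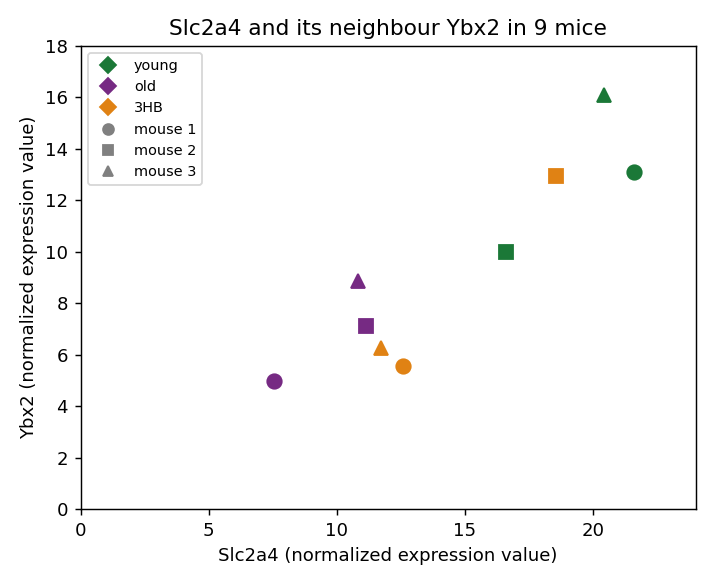
Normalized expression value of Ybx2 (vertical axis) against that of Slc2a4 (horizontal axis) in 9 mice, both on linear axes from 0. Colours give the group and symbols the mouse. 3HB mouse 2 (18.56 for Slc2a4, 12.93 for Ybx2) stands among the young mice, and the other 3HB mice stand near the old ones.

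Of 122 genes in the lists for glucose carriers, monocarboxylate carriers, insulin signalling to GLUT4 vesicles, glycolysis with gluconeogenesis and regulators of Slc2a4, 4 were in a table, the 3 members and Slc16a14. None of the 7 sodium-coupled glucose carriers, the 30 glycolysis, gluconeogenesis and lactate genes or the 13 regulators was listed, and Slc2a4 was the only listed gene of 12 facilitative carriers. The share of all measured genes that were listed is not known here, so 4 of 122 has no background to be set against. A gene that is not listed may still have differed.

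Slc16a14 (ENSMUSG00000026220) encodes another member of the monocarboxylate carrier family and was listed for 3HB against old. Its value was 8.84, 5.79 and 7.55 in old and 16.30, 16.79 and 16.89 in 3HB mice, which is 2.25 times as much with 3HB and a log2 difference of 1.09 (standard error 0.157). The young mice, at 2.08, 4.96 and 19.05, spanned both groups. For 3HB minus old, Slc16a14 was at 1.09 and Slc16a11 at -0.13 in the same mice. Slc16a14 had been listed for this difference and Slc16a11 for age alone, so a gap between them was built into the listing. A direct test between them was not made.

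The deposited KEGG annotation placed 6 listed genes in pathways of insulin signalling, insulin resistance, adipocytokine signalling or type II diabetes, and all 6 came from the table for age. Slc2a4, Prkcq and Pygb were lower in old mice, and Rhoq, Npy and Acsl6 were higher. Prkcq, which encodes protein kinase C theta, averaged 2.41 ± 0.414 for young, 1.12 ± 0.121 for old and 1.32 ± 0.503 for 3HB mice (SD, n = 3 each). Pygb, a glycogen phosphorylase that releases glucose units from glycogen, was at 9.47 ± 1.44, 5.41 ± 0.828 and 6.92 ± 1.15 in the same order. Npy, the gene of the neuropeptide Y, was at 0.350 ± 0.482 in young and 30.4 ± 16.6 in old mice. In these 6 genes young and old mice did not overlap, as in 92.5% of all genes of that table. Of the 10 solute carriers listed for age, 7 were lower in old mice, including Slc2a4 and Slc16a11, and the median over the 10 was -0.88 on the log2 scale. Apart from these members, 5 of 8 were lower. Of all 389 genes listed for age, 118 were lower in old mice, and the median over the 389 was 1.14.

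Among 331 listed genes compared, those whose log2 values followed Slc2a4 most closely over the 9 mice were Prkcq, Pygb, Epb41l4b, Klk1 and Bcam, with Pearson's r from 0.90 to 0.92. For the deviations from the group means r was 0.91 for Prkcq, 0.90 for Bcam, 0.67 for Epb41l4b, 0.64 for Pygb and 0.52 for Klk1. Prkcq (1.89), Pygb (8.24), Epb41l4b (6.27) and Bcam (40.8) were each highest in mouse 2 of the 3HB group, as Slc2a4 was. The tissue kallikrein gene Klk1, expressed in the distal nephron, averaged 2457 ± 273 for young, 1347 ± 220 for old and 1772 ± 87.4 for 3HB mice (SD, n = 3 each), and its 3HB mice also lay above all old mice, whereas 3HB and old mice overlapped in the other four genes. Rhoq was followed most closely by Rnf13, Prxl2c, Zfp970, Ccl28 and Gstt1, with r from 0.97 to 0.99. Like Rhoq, all of these genes were highest in mouse 3 among the young mice, and the r of the deviations from the group means was 0.86 to 0.94. Slc16a11 was followed by Ubxn10, Pla2g2c, Morf4l1-ps1, Hsd3b8 and Atp4a, with r from 0.86 to 0.87, and with r from 0.51 to 0.62 for the deviations from the group means. Morf4l1-ps1 is a pseudogene and Hsd3b8 has close paralogs, so their values are uncertain. Between members, r was -0.53 for Slc2a4 and Rhoq, 0.62 for Slc2a4 and Slc16a11 and -0.61 for Rhoq and Slc16a11. For the deviations from the group means, the same pairs were at 0.50, 0.27 and 0.51, all positive. All genes compared had been listed for a difference between these groups, so high values of r are common among them, and points from 1 group share that difference.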

How the data were processed

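RNA from 9 kidneys was sequenced as paired-end reads. The submitters' processing notes name CASAVA, HISAT2, StringTie and build GRCm38. The authors deposited 2 tables of normalized expression values with 2 decimals (TPM or FPKM, which was not given in the sources used here), limited to genes they had called. The test and the threshold behind the calls, and the counting of strand, were likewise not given. The RNA-seq methods name muscle, whereas the labels name kidney. No fit across all genes was possible, depth is unknown, and precision rests on 3 mice per group. Nothing states that mice were littermates or shared a batch.

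Genes were matched by symbol. Differences are between group means of log2(value + 1), or of log2(ratio) for ratios within a mouse, with standard errors from both SDs and two-sided exact permutation tests over 20 splits (smallest p 0.1). Members and lists were chosen with earlier results of these data known. A further gene list is not reported here. Named genes are the members, listed genes of the lists, the 5 genes of highest Pearson's r with each member (highest group mean of at least 1; predicted genes named Gm or Rik and immunoglobulin genes left out) and listed genes within 1 Mb. Positions came from GENCODE mouse release 21, also GRCm38, which held 479 of the 489 genes by identifier. The functions were tested on simulated data. Python 3.11.15, numpy 2.4.6, pandas 2.3.3 and matplotlib 3.10.9 were used.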

Additional observations from a re-analysis of the deposited data

How the results depend on the processing

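The 9 comparisons of Slc2a4, Rhoq and Slc16a11 were repeated with pseudocounts of 0.1 and 0.01, the median of the mice, centring on the genes of the other table, matching by identifier, a replicate block and each mouse left out, 108 alternatives in all. Matching by identifier and the replicate block cannot change a difference of means here, and the direction for age had been called on these mice. In 107 of the 108 the direction was kept, and none reached p below 0.1. That is the lowest that the exact permutation test can give with 3 mice against 3. The genes used for centring had been called on these same mice, so a gain or loss of overlap after centring is not independent of those calls. The exception was Slc16a11 for 3HB minus old, which ran from -0.38 to 0.085 without 1 mouse and was positive only without old mouse 3. The deviations of same-numbered mice had r from -0.24 to 0.16, over 0.1 in 2 of 9 pairs. For mice of different numbers r ran from -0.21 to 0.27. With 3 mice per group this cannot exclude a pairing by number, which the labels do not state. With the replicate block, Slc2a4 was at -0.93 for old minus young (exact sign-flip test, p = 0.25, the smallest for 3 pairs). Among 60 values added after seeing the data, each without 1 mouse, 2 reversed. The log2 ratio of Slc2a4 over Ybx2, old minus young, ran from -0.22 to 0.024, and that of Slc16a11 over Slc2a4 ran from -0.043 to 0.37. The number of genes without overlap between young and old mice was 360 of 389. It was 325 with a highest group mean of at least 1, a filter that leaves fewer genes to count, so 325 is no share of the 389. Without 1 mouse it was 361 to 374, where fewer mice have to separate.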
